A study of Caenorhabditis elegans with 12 samples.

Results

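The comparison described here is the unstressed effect of the lin-40(yth27) mutation: 3 libraries of lin-40(yth27) animals against 3 libraries of WT animals, all grown on empty vector (EV) bacteria. These are 6 of the 12 libraries of an RNA-seq experiment in Caenorhabditis elegans, taken by their genotype and bacteria labels. The WT strain was N2, and the mutant strain carried lin-40(yth27) on chromosome V as its only listed allele. Animals of both genotypes were raised from hatch at 20 °C on HT115 Escherichia coli carrying the EV, the RNAi plasmid without an insert, and whole animals were collected at L4, the last larval stage. The other 6 libraries came from the same genotypes on cco-1 RNAi, which lowers a subunit of cytochrome c oxidase and stresses mitochondria. They entered the model for the spread between libraries and served as separate libraries in which the EV differences could be measured again. The yth27 allele came from a mutagenesis screen and is an amino acid substitution in LIN-40. The mutant group rests on this 1 allele, so effects of lin-40 and of any other difference between the strains cannot be told apart.

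LIN-40 is the worm counterpart of the MTA proteins, the scaffold of NuRD, a complex that joins nucleosome remodeling to histone deacetylation. It contains a Mi-2 type remodeler (LET-418 or CHD-3), the histone deacetylase HDA-1, the histone-binding protein LIN-53 and the p66 protein DCP-66. The complex is best known as a repressor of transcription, and in C. elegans its subunits act in vulval fate, embryonic patterning and the separation of germline from somatic gene programs. The yth27 allele is followed by PCR, and the study's designed primer pair is shown because the allele defines the mutant group (chromosome V, 5′ to 3′, the forward primer of 20 and the reverse primer of 21 bases).
lin-40(yth27) F: cccacgcgatccttcatcag
lin-40(yth27) R: ttatcaccactgttcagcgtc

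The 6 EV libraries held 18553472 to 22509784 counts. lin-40 RNA (WBGene00003025) lay at 149, 94.2 and 101 CPM (a gene's count relative to the library total, with the totals scaled by TMM) in WT and 133, 101 and 100 CPM in the mutant, a log2 fold change of -0.04 (SE 0.20). The RNA level therefore does not mark an allele that changes the protein, and it is no check of the labels. cox-5B, the gene named cco-1 in the study, lay at 494 ± 21.5 CPM in WT and 416 ± 8.35 CPM in the mutant (SD, n = 3 each), and its log2 fold change of -0.25 did not pass (edgeR adjusted p = 0.472). WT library 1 stood apart from the other 5, at -78.06 on a first principal component that held 49.5% of the variance, where the others lay between -15.34 and 36. Mutant library 1 stood apart on the second component (26.5%), at -50.15 where the others lay between -6.19 and 35.64. What the removal of WT library 1 does to the calls is given once for all called genes, and beside single results where it moves a value. In whole animals, fewer cells of a type and less RNA per cell cannot be told apart.

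Of 14867 genes tested, 56 (0.377%) passed an adjusted p of 0.05 in edgeR's quasi-likelihood test with Benjamini-Hochberg adjustment. They comprised 30 genes that were higher in lin-40(yth27), 0.202% of those tested, and 26 that were lower, 0.175%. The 3 mutant libraries lay wholly above or wholly below the 3 WT libraries for each of the 56, an arrangement that 13.4% of all genes showed upward and 13.1% downward. DESeq2 called 458 genes (3.08%), 163 of them higher (1.1%) and 295 lower (1.99%), which included all 56. The called higher genes had a low median level of 3.62 CPM per kb of exon, the called lower genes 13 CPM per kb, and all genes tested 7.24 CPM per kb.

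The number of calls depended strongly on single libraries and on pairing. With the replicate number as a block, 9 genes remained called (0.0605%): F56A4.3, M162.5, K09C4.5, spp-23, asp-8 and the distal C13B7.6 copy were lower, and fat-7, F15B9.6 and T22B7.7 were higher. Each of the other 47 lost its call with the block. Without WT library 1 the test called 13 genes, all 13 among the 56: F15B9.6, C27B7.9, T22B7.7, che-12 and F26G1.2 were higher, and F56A4.3, M162.5, srp-3, K09C4.5, spp-23, asp-8, cyn-6 and the distal C13B7.6 copy were lower. The other 43, 25 higher and 18 lower, lost their call at adjusted p of 0.0564 to 0.172. The log2 fold change without that library was 0.84 to 1.19 times the value with it over the 56, and no direction turned. Without WT library 3 the test called 6. Leaving out mutant library 1, 2 or 3 gave 15, 9 or 8 calls. F56A4.3, K09C4.5, M162.5, spp-23, T22B7.7 and F15B9.6 were called in all 12 fits that left out 1 library.

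Lipid metabolism gave one of the best separated of the up-regulated genes. fat-7, a stearoyl-CoA desaturase that makes oleate from stearate, lay at 1.52, 2.04 and 1.96 CPM in the WT libraries and 24.3, 25.6 and 33.2 CPM in the mutant. Every mutant library was far above every WT library, and the gene rose 15.0-fold (log2 fold change 3.91, SE 0.67, edgeR adjusted p = 0.0361; 0.00539 with the replicate block). Without WT library 1 the log2 fold change was 3.79 and the adjusted p 0.14. None of the other 6 desaturases tested passed edgeR (0 higher and 2 lower at an unadjusted p under 0.05). fat-6, which carries out the same reaction, lay at 489, 266 and 409 CPM in WT and 265, 259 and 277 CPM in the mutant, and the groups overlapped (log2 fold change -0.54, SE 0.21). fat-5, the palmitoyl-CoA desaturase, lay at 11.6, 5.09 and 6.08 against 23.5, 9.69 and 9.87 CPM, again overlapping (log2 fold change 0.92, SE 0.43). DESeq2 called fat-7 higher and 1 other member lower.

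The largest fitted rises belonged to genes that were close to absent in WT. dod-23, identified in C. elegans as a gene downstream of the DAF-16 transcription factor, lay at 0.225, 2.22 and 0.875 CPM in WT and 28.4, 28.7 and 42.5 CPM in lin-40(yth27). cut-3, a cuticlin-like gene, had 5 counts in the 3 WT libraries together (0, 0.0926 and 0.154 CPM) and 125 counts in the mutant (2.27, 1.64 and 1.99 CPM). The WT libraries sat at the floor for cut-3 and spread widely for dod-23, yet no mutant library came near them in either case. The log2 fold changes were 4.86 (SE 0.80) and 4.44 (SE 0.72), both at edgeR adjusted p = 0.0358, and both lost the call without WT library 1 at log2 fold changes of 4.40 (adjusted p = 0.0931) and 3.94 (adjusted p = 0.0869). The 2 genes lie 46005 bp apart on chromosome II on the same strand (build WBcel235, dod-23 at 8398161-8399164 and cut-3 at 8445169-8446831).

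F15B9.6 (chromosome V) rose 19.6-fold, from 0.281, 0.324 and 0.309 CPM to 8.38, 5.5 and 4.45 CPM, and C27B7.9 (chromosome IV) rose by 3.32 on the log2 scale, from 0, 0.324 and 0.309 CPM to 1.85, 1.97 and 2.87 CPM. T22B7.7 (chromosome X) lay at 1.58, 1.76 and 2.16 CPM in WT and 7.65, 16.5 and 18.7 CPM in the mutant. In all 3 genes the WT values were tight or at the floor and the mutant values lay apart. F15B9.6 and T22B7.7 were among the strongest calls of the comparison (edgeR adjusted p = 0.00346 and 0.00569). pals-39, of a family with members induced by intracellular pathogens, rose 6.27-fold from 0.113, 0.648 and 0.464 CPM to 3.59, 2.27 and 2.09 CPM.

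A few of the called higher genes are known from neurons, and they were picked out after their values were seen, from no fixed list. gpa-6, a G protein alpha subunit of sensory neurons, lay at 0.45, 0.602 and 0.258 CPM in WT and 3.32, 1.43 and 2.36 CPM in lin-40(yth27). che-12, which encodes a protein of sensory cilia, lay at 1.07, 0.833 and 0.875 CPM against 4.64, 4.03 and 4.22 CPM. Each mutant library exceeded each WT library, with log2 fold changes of 2.41 (SE 0.43, edgeR adjusted p = 0.0389) and 2.21 (SE 0.27, edgeR adjusted p = 0.0078). che-12 kept its call without WT library 1 (0.0308). B0024.4, which ends 487 bp from che-12 on the opposite strand of chromosome V, rose alongside it from 2.14, 0.694 and 1.8 CPM to 8.91, 6.96 and 6.67 CPM. The library kit is not stated to keep strand. pks-1, a polyketide synthase that makes the nemamides, rose 4.41-fold from 1.52, 1.39 and 1.34 CPM to 6.27, 6.63 and 5.89 CPM. syd-9, a zinc finger gene with a synaptic function in neurons, rose 1.84-fold. Of the 12 pan-neuronal and transmitter markers none was called. Their median log2 fold change was 0.20 against 0.03 for all genes, and 0.07 against -0.08 after a trend with gene length was removed. Of the 12, 6 (50%) lay above WT in all libraries, against 13.4% of all genes. At an unadjusted p under 0.05 in edgeR 5 were higher, and DESeq2 called 1 higher. Their summed level was 527 to 646 CPM in WT and 539 to 668 CPM in the mutant. unc-104, the synaptic vesicle kinesin, came nearest, at 8.61, 8.38 and 9.48 CPM against 17.4, 14 and 15.8 CPM (log2 fold change 0.83, edgeR adjusted p = 0.0981).

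Histone genes contributed 3 of the called higher genes. his-15, an H2B gene, lay at 13.7, 12.6 and 14.4 CPM in WT and 36, 28.3 and 27.8 CPM in the mutant. his-59, an H3 gene, lay at 5.29, 6.53 and 5.3 CPM against 15.4, 13 and 12.4 CPM, and his-31, an H4 gene, at 0.506, 0.463 and 0.618 CPM against 1.53, 2.22 and 1.95 CPM. The groups were separated in each, and the rises were 2.26-fold, 2.37-fold and 3.57-fold (edgeR adjusted p = 0.109, 0.172 and 0.137 without WT library 1). Of 60 histone genes tested, 27 (45%) lay above WT in all libraries and 3 below, where 13.4% and 13.1% of all genes did so, and the median log2 fold change was 0.51 against 0.03 for all genes. DESeq2 called 8 histone genes higher and 1 lower. On cco-1 RNAi the median was 0.88, and edgeR called 12 histone genes higher and 0 lower. Summed over the family, the level was nearly flat, at 1330 to 1350 CPM in WT and 1340 to 1420 CPM in the mutant, and the 3 called members were among those of low level. Replication-dependent histone mRNAs end in a stem-loop and carry no poly(A) tail, and these libraries were selected with oligo(dT). Histone copies are near identical in sequence, so the assignment of reads among them is uncertain.

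Cuticle genes were among the called in both directions. col-68, a collagen, went from 6.53, 8.8 and 6.95 CPM in WT to 24.1, 19 and 21.2 CPM in lin-40(yth27), a 2.88-fold rise. The cuticlin-like gene cutl-8 went from 1.97, 2.78 and 2.01 CPM to 6.12, 6.04 and 5.24 CPM, and nas-7, an astacin metalloprotease, rose 2.01-fold. The called higher were 1 of 150 collagens (0.667%), 2 of 32 cuticlins with cut-3 (6.25%) and 1 of 56 molting and apical matrix genes, where 0.202% of all genes were called higher. The opposite direction was seen for lpr-6, a lipocalin-related protein of the apical matrix, which fell from 292, 212 and 311 CPM to 138, 156 and 149 CPM.

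The remaining up-regulated genes carried varied roles. ugt-4, a UDP-glucuronosyl transferase, rose 4.19-fold from 0.281, 0.787 and 0.721 CPM to 2.06, 2.6 and 2.97 CPM. ztf-26, a zinc finger gene, rose 3.83-fold, swt-6, of the SWEET sugar transporter family, 3.79-fold, scl-5, an SCP-like secreted protein, 3.24-fold, and the C-type lectin clec-47 2.99-fold. ppt-1, a lysosomal palmitoyl-protein thioesterase, rose 2.89-fold, F26G1.2 2.83-fold, the pseudogene WBGene00014294 2.46-fold, coel-1, related to tubulin folding cofactor E, 2.27-fold and klp-3, a kinesin, 2.23-fold. F42A8.1 and Y44A6D.3 showed the smallest rises, 1.75-fold and 1.56-fold.

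The largest fall was that of F56A4.3 (WBGene00018911, V:2453414-2456147 in WBcel235). It lay at 25.6, 47.5 and 52.4 CPM in the WT libraries and 0.0527, 0.168 and 0 CPM in the mutant, or 2499 counts against 5. Transcript was all but missing in each mutant library, and the log2 fold change was -8.97 (SE 0.63, edgeR adjusted p = 0.000143), called in every alternative run. R144.11 on chromosome III and Y58A7A.4 on chromosome V were at 0 in all 3 mutant libraries. R144.11 lay at 0.45, 0.972 and 0.36 CPM in WT, at least 13.1-fold higher than a floor of 3 counts over the mutant group, and Y58A7A.4 lay at 0.45, 0.509 and 0.772 CPM, at least 12.4-fold higher than that floor. On cco-1 RNAi, Y58A7A.4 was again at 0 in the mutant and at 4.3, 6.11 and 5.26 CPM in WT. R144.11, by contrast, was present there in every mutant library (0.705, 1.3 and 1.27 CPM) and every WT library (1.14, 0.758 and 1.44 CPM), with overlap.

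F56A4.3 did not fall alone. It lies in a stretch of chromosome V from 2368944 to 2531174 (162 kb, ending 1.17 Mb before lin-40 at 3704988-3712796), which was singled out after its values were seen and whose ends are those of its first and last called genes. The stretch holds gene copies repeated 108 kb apart, and all 15 genes tested in it had a lower level in lin-40(yth27). Of these, 8 were called lower and 13 lay below WT in all libraries, with a median log2 fold change of -1.26. In the 250 kb on each side, 65 genes were tested and none was called by edgeR (10 lower and 2 higher at an unadjusted p under 0.05, 6 in DESeq2). Their median was -0.16, and 19 lay below and 4 above WT in all libraries, where 13.1% and 13.4% of all genes did. The lowest lay just before the stretch: irld-35 at 0.338, 0.509 and 1.29 CPM against 0.0527, 0.126 and 0 CPM, without overlap (log2 fold change -3.41, SE 0.95, edgeR adjusted p = 0.149), and another copy of F56A4.10 (WBGene00021223) at -1.81 (SE 1.41). A copy of clec-209 there (WBGene00021224) stood at -0.93 (SE 0.57). F56A4.12, at the left end, lay at 96.4, 136 and 157 CPM in WT and 43.9, 59.2 and 60.3 CPM in the mutant. C13B7.6, at the right end (WBGene00044131), lay at 35.2, 39.9 and 42.4 CPM against 17.1, 19.3 and 20.3 CPM. Both fell by a little over 1 log2 unit without overlap. mct-2, related to monocarboxylate transporters, lay at 113 ± 13.6 CPM against 45.2 ± 2.63 CPM (SD, n = 3 each) in its longer copy (WBGene00015273). That copy did not pass edgeR (adjusted p = 0.0552) and was called lower by DESeq2 (adjusted p = 0.00021). The shorter copy (WBGene00021227) overlapped at 5.01, 11.4 and 15.4 against 6.27, 8.06 and 9.5 CPM (log2 fold change -0.42, SE 0.69). F56A4.10 lay at 5.79, 2.92 and 5.05 CPM against 0.738, 0 and 0 CPM (log2 fold change -4.29, adjusted p = 0.0981). The copies of C01B4.6 and of Y19D10A.4 have identical counts in the deposited table, so 4 of the 8 calls amount to 2 measurements. The uncalled copies of C01B4.8 have identical counts as well. The 15 genes, and the 13 of them without overlap, therefore include measurements that are counted more than once. C01B4.6 lay at 14.4, 10.4 and 16 CPM against 5.11, 4.24 and 4.91 CPM, and Y19D10A.4 at 10.3, 10.6 and 11.7 CPM against 4.64, 4.66 and 4.45 CPM. On cco-1 RNAi all 15 genes were again lower, with a median of -1.24, and 5 were called, among them both identical copies of Y19D10A.4. Without the 15 genes the comparison counts 48 calls, 30 higher and 18 lower. Whether the mutant strain differs from N2 in the DNA of this stretch was not tested.

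**Figure D1:**
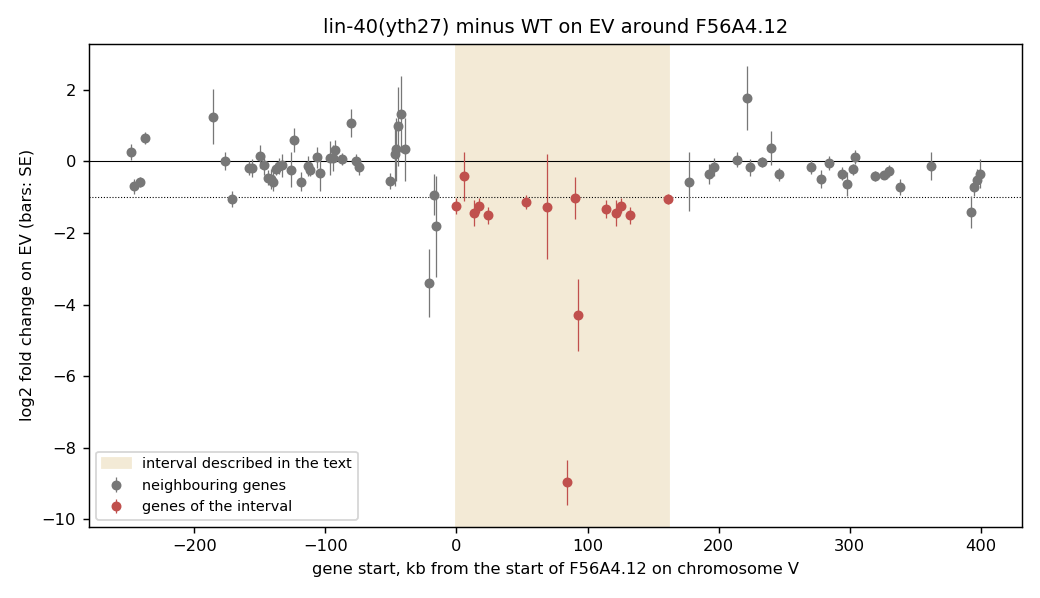
Log2 fold change on EV (lin-40(yth27) minus WT, bars are SE) of each gene tested within 250 kb of the stretch of chromosome V described in the text, by distance in kb from the start of F56A4.12; the shaded band is the stretch, red its 15 genes, gray their neighbors. The red points lie near a median of -1.26 apart from F56A4.3 at -8.97, F56A4.10 at -4.29 and the shorter mct-2 copy at -0.42. The gray points scatter around -0.16, with irld-35 the lowest at -3.41.

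Chromosome V held 13 of the 26 called lower genes and 10 of the 30 called higher, and 19.8% of the genes tested. Within 3 Mb of lin-40, 11 of 767 genes tested were called lower and 1 higher (1.56% called), and on the rest of the chromosome 2 of 2179 were called lower and 9 higher (0.505% called). The 1.56% includes the repeated stretch, which held 8 of the 11 called lower, and 4 of those 8 amount to 2 measurements. Besides the 8 calls in the repeated stretch, the called lower genes near lin-40 included srp-3, a serpin, at 3.6, 4.81 and 4.12 CPM in WT and 0.844, 0.923 and 0.556 CPM in the mutant. They also included asp-8, an aspartyl protease, at 175, 246 and 202 CPM against 73.8, 109 and 103 CPM. Y58A7A.4 (V:5081988-5085007), described above as at 0 in the mutant, was likewise among them. srp-3 fell 5.36-fold and asp-8 2.18-fold, each without overlap. On the other nuclear chromosomes 0.176% (III) to 0.432% (X) of genes were called. Genes of the region that is linked to lin-40 pass together in crosses, and the part of linked differences in these counts was not tested.

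Called lower genes also lay outside that region. M162.5, near the right end of chromosome V, lay at 10.2, 5.79 and 10.5 CPM in WT and 0.949, 0.881 and 0.695 CPM in the mutant, a 10.4-fold fall (edgeR adjusted p = 0.000537). K09C4.5 on X lay at 22.3, 20.6 and 25.4 CPM against 9.02, 7.09 and 6.9 CPM, a 2.97-fold fall. The mutant values were tight in both and far below WT. spp-23, a saposin-like gene, fell 2.22-fold from 37.3, 38.3 and 33.3 CPM to 15.6, 16.5 and 17.1 CPM (edgeR adjusted p = 0.00346, as for K09C4.5). F33E2.4 and C49G9.2, 17556 bp apart on chromosome I, fell together, F33E2.4 from 3.88, 3.29 and 3.6 CPM to 0.211, 0.797 and 0.556 CPM and C49G9.2 from 1.18, 1.94 and 1.13 CPM to 0.369, 0.378 and 0.278 CPM. best-21, a bestrophin, fell 2.74-fold from 6.36, 9.26 and 7.26 CPM to 2.95, 2.77 and 2.64 CPM, and F49C5.11 fell 2.59-fold from 33.4, 40.1 and 49.8 CPM to 10.3, 19.3 and 18 CPM. Of the abundant genes, cyn-6, a cyclophilin, fell 2.10-fold from a mean of 268 CPM, alh-12, an aldehyde dehydrogenase, 1.43-fold from 148 CPM, and zmp-4, a zinc metalloprotease, 1.75-fold from 52.8 CPM. F09C8.1, B0454.5 and Y49E10.18 fell 2.50-fold, 2.09-fold and 1.70-fold.

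The EV differences were then measured in the 6 libraries on cco-1 RNAi, in which the genotypes can be compared again under mitochondrial stress. Of the 56 genes, 54 had the same direction there (96.4%, 95% Wilson interval 87.9% to 99%, which treats genes as independent although copies and neighbors are not). For comparison, 48.3% of all genes tested were above and 51.7% below 0 on cco-1 RNAi. Of the 30 genes higher on EV, 26 lay above WT in all cco-1 RNAi libraries (9.85% of all genes), and of the 26 lower genes, 20 lay below (7.34%). The edgeR test on cco-1 RNAi called 93 genes (0.626%), 74 higher (0.498%) and 19 lower (0.128%), of which 21 were among the 56, with 12 higher and 9 lower on both kinds of bacteria and none called in opposite directions. The exceptions were lpr-6, which fell by 0.88 on the log2 scale on EV and stood at 0.24 on cco-1 RNAi, and coel-1, which stood at 1.18 and -0.04. The median log2 fold change of the higher genes was 1.77 on EV and 1.22 on cco-1 RNAi, and that of the lower genes -1.29 and -0.96. The 56 were chosen for their EV values, so smaller values in the second set of libraries carry that choice. The cco-1 RNAi libraries also entered the spread by which the 56 were called. The shares of all genes are therefore not a matched baseline for the 56. The test of the difference between the 2 effects passed for no gene (edgeR, lowest adjusted p = 0.388, 1687 genes at an unadjusted p under 0.05, 24 of them among the 56).

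fat-7 illustrates the comparison. On cco-1 RNAi it lay at 0, 0.0446 and 0 CPM in WT and 0.176, 3.52 and 4.12 CPM in lin-40(yth27), so its level was lower in both genotypes than on EV while the mutant libraries stayed above WT (edgeR adjusted p = 0.0403). cut-3 was at 0, 0.0892 and 0 CPM against 0.661, 1.58 and 1.27 CPM. T22B7.7 was at 1.97, 2.81 and 3.1 CPM against 3.31, 4.12 and 2.66 CPM, and here the groups overlapped, with a log2 fold change of 0.36 where EV gave 2.96. F15B9.6 was at 4.19, 4.37 and 1.48 CPM against 13.4, 9.41 and 9.25 CPM, all mutant libraries above WT at a log2 fold change of 1.67.

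**Figure D2:**
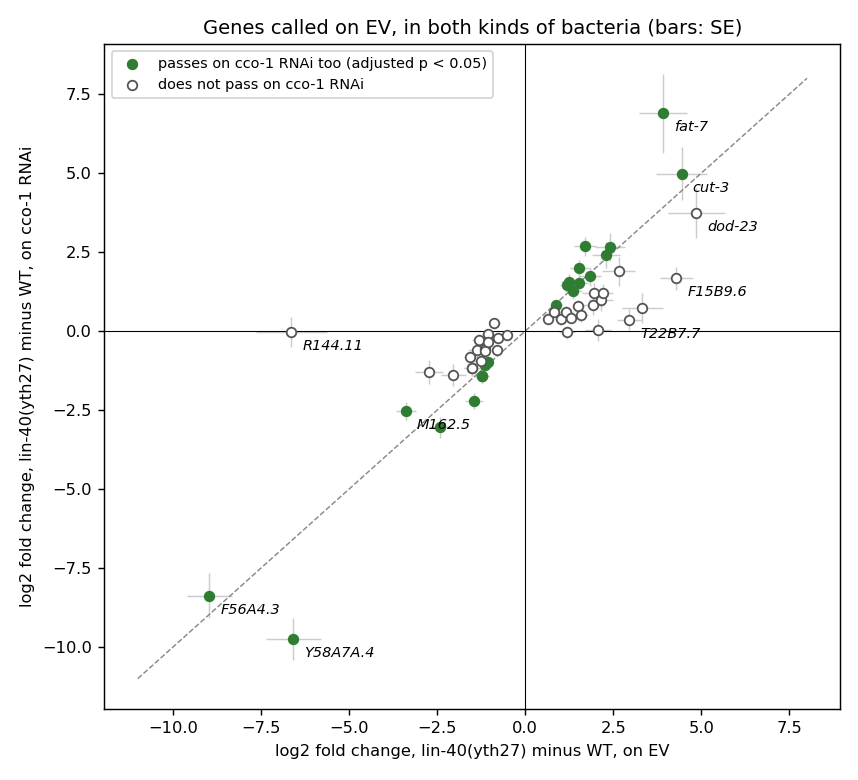
Log2 fold change of lin-40(yth27) against WT on EV (x axis) and on cco-1 RNAi (y axis) for the 56 genes called on EV, with SE bars, and the dashed line marks equal values; filled points are the 21 genes that also passed on cco-1 RNAi. 54 of 56 points lie in the lower left or upper right quadrant. The fitted values of Y58A7A.4 and R144.11 rest on groups at 0 counts and depend on the prior count of the fit.

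None of 8 members of NuRD and of the related MEC complex passed edgeR (2 higher at an unadjusted p under 0.05, and dcp-66 higher in DESeq2 at an adjusted p of 0.0476). Their median log2 fold change was 0.15 against 0.03 for all genes, or -0.01 against -0.08 after a trend with gene length was removed. dcp-66 lay at 26, 32 and 37.3 CPM in WT and 56.5, 51.2 and 47.2 CPM in the mutant (log2 fold change 0.70, SE 0.20, edgeR adjusted p = 0.151). egl-27, the other MTA-related gene, lay at 34.2, 38.3 and 36.4 CPM against 56.6, 49.8 and 50.3 CPM (log2 fold change 0.52, SE 0.15, edgeR adjusted p = 0.155). Both were above WT in all libraries without passing edgeR. hda-1 (-0.07), lin-53 (-0.07), chd-3 (0.19), let-418 (0.21) and mep-1 (0.10) differed by log2 fold changes with SE of 0.10 to 0.24, and lin-53 was below WT in all libraries by a narrow margin (71.3, 69.4 and 69.6 against 64.6, 66.6 and 68.7 CPM). Of the 15 DREAM and synMuv B repressors, with which NuRD subunits share genetic functions, none passed (1 higher at an unadjusted p under 0.05, 0 in DESeq2), with a median of 0.14.

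The mitochondrial unfolded protein response (UPRmt) induces mitochondrial chaperones and proteases, and EV is its unstressed condition. None of its 13 genes passed edgeR (1 higher and 3 lower at an unadjusted p under 0.05, 1 lower in DESeq2). hsp-6, the mitochondrial HSP70, lay at 1440, 773 and 942 CPM in WT and 793, 795 and 724 CPM in the mutant. hsp-60, the mitochondrial chaperonin, lay at 1270, 906 and 1020 CPM against 840, 884 and 858 CPM. WT library 1 was the highest in both, and only hsp-60 was without overlap (log2 fold changes -0.45, SE 0.20, and -0.31, SE 0.15). Without WT library 1 the log2 fold changes were -0.15 for hsp-6 and -0.16 for hsp-60. dve-1, the homeodomain factor of the response, lay at 20.4, 20.9 and 24.8 CPM against 38.5, 28.3 and 25.7 CPM (log2 fold change 0.48, SE 0.20, edgeR adjusted p = 0.297), and atfs-1 at 0.21 and ubl-5 at -0.25 on the log2 scale overlapped between the groups. The list's median of -0.13 was -0.05 without WT library 1 and 0.02 with library totals as the scale, a scale on which the median of all genes is 0.16.

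Most energy metabolism genes lay lower in lin-40(yth27) on EV, and few passed the test. Of 98 nuclear-encoded genes of oxidative phosphorylation (OXPHOS), 95 had a log2 fold change below 0 and 74 (75.5%) lay below WT in all libraries, against 13.1% of all genes, with a median of -0.29. None passed edgeR (0 higher and 29 lower at an unadjusted p under 0.05, 2 lower in DESeq2). The 33 TCA cycle genes were all below 0 with 22 wholly below WT and a median of -0.35, the 12 mitochondrial-encoded OXPHOS genes had a median of -0.33, and the 41 glycolysis genes one of -0.33, with 34 below and 7 above 0 and 26 wholly below and 2 wholly above WT. On cco-1 RNAi the medians were near or above 0, at 0.12 for nuclear-encoded and 0.56 for mitochondrial-encoded OXPHOS genes, -0.01 for the TCA cycle and -0.02 for glycolysis. The mitochondrial-encoded genes summed there to 11200, 8920 and 10900 CPM in WT and 10900, 13000 and 18600 CPM in the mutant. Of these, 7 lay wholly above WT, and of the nuclear-encoded genes 0 lay wholly above and 3 wholly below. On EV none of the TCA cycle genes (16 lower at an unadjusted p under 0.05, 2 lower in DESeq2) and none of the mitochondrial-encoded genes (2 lower, 0 in DESeq2) passed edgeR. Of glycolysis 3 did, alh-12 and the identical copies of C01B4.6, with 8 lower in DESeq2. The strongest TCA member was pck-1, the phosphoenolpyruvate carboxykinase, at 714, 389 and 397 CPM in WT and 276, 249 and 209 CPM in the mutant (log2 fold change -1.03, SE 0.23, edgeR adjusted p = 0.09). nuo-6, a complex I subunit, lay at 175, 182 and 179 CPM against 126, 136 and 141 CPM (log2 fold change -0.41, edgeR adjusted p = 0.171).

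The genes that supply acetyl-CoA were also lower on EV. All 8 were below 0 and 6 (75%) lay below WT in all libraries, against 13.1% of all genes. The median was -0.34 on EV and -0.00 on cco-1 RNAi, and none passed edgeR (5 lower at an unadjusted p under 0.05, 0 in DESeq2). cts-1, the citrate synthase, lay at 2320, 1590 and 1900 CPM in WT and 1580, 1450 and 1380 CPM in the mutant. pdhb-1, a pyruvate dehydrogenase subunit, lay at 440, 363 and 403 CPM against 290, 305 and 310 CPM, and acs-19, an acetyl-CoA synthetase, at 401, 320 and 410 CPM against 248, 283 and 286 CPM. In these 3 the groups did not overlap. acly-1 (-0.35) and acly-2 (-0.15), the ATP citrate lyases, overlapped, and pdha-1 (-0.24), dlat-1 (-0.32) and dld-1 (-0.33), of the pyruvate dehydrogenase complex, did not. Without WT library 1 the medians were -0.22 for acetyl-CoA supply, -0.24 for the nuclear OXPHOS genes and -0.23 for the TCA cycle as well as glycolysis. With library totals as the scale they were -0.20, -0.15, -0.21 and -0.19 in turn, to be read against the 0.16 of all genes on that scale.

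Genes of protein synthesis and turnover shifted less. The median log2 fold change was -0.13 for 83 cytosolic ribosomal proteins, -0.23 for 65 mitochondrial ribosomal proteins and -0.18 for 33 proteasome subunits. In turn, 38 (45.8%), 26 (40%) and 22 (66.7%) lay wholly below WT, against 13.1% of all genes. No member was called by edgeR or DESeq2, and 0, 12 and 3 members were lower at an unadjusted p under 0.05. With library totals the cytosolic ribosomal median was 0.00, where the median of all genes is 0.16. On cco-1 RNAi the medians of the 3 lists were 0.43, 0.15 and 0.14, and mutant library 3 was the highest mutant library in each. There the cytosolic ribosomal genes summed to 160000, 132000 and 153000 CPM in WT and 153000, 179000 and 267000 CPM in the mutant. Of these 83 genes 10 lay wholly above WT on cco-1 RNAi, where 9.85% of all genes did. rpl-25.2 lay at 952, 940 and 1050 CPM against 758, 922 and 899 CPM, and the proteasome gene pas-7 at 150, 144 and 149 CPM against 118, 127 and 125 CPM. Of 12 aspartyl proteases, gut enzymes for the most part, asp-8 passed, with a median of -0.39. Wholly below WT lay 7 (58.3%) and wholly above 1 (8.33%), against 13.1% and 13.4% of all genes. The 8 intestine markers had a median of -0.36, with all 8 below 0 and none at 0 CPM in any mutant library. None passed edgeR (4 lower at an unadjusted p under 0.05, 0 in DESeq2). Their sums were 15200, 10900 and 11700 CPM in WT and 10100, 8540 and 8460 CPM in the mutant. The median was -0.24 for hypodermis and seam markers and -0.15 for body wall muscle markers. It was 0.12 for pharynx and 0.20 for neuron markers. The part of gut RNA content in the lower metabolic and protease levels was not tested.

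**Figure D3:**
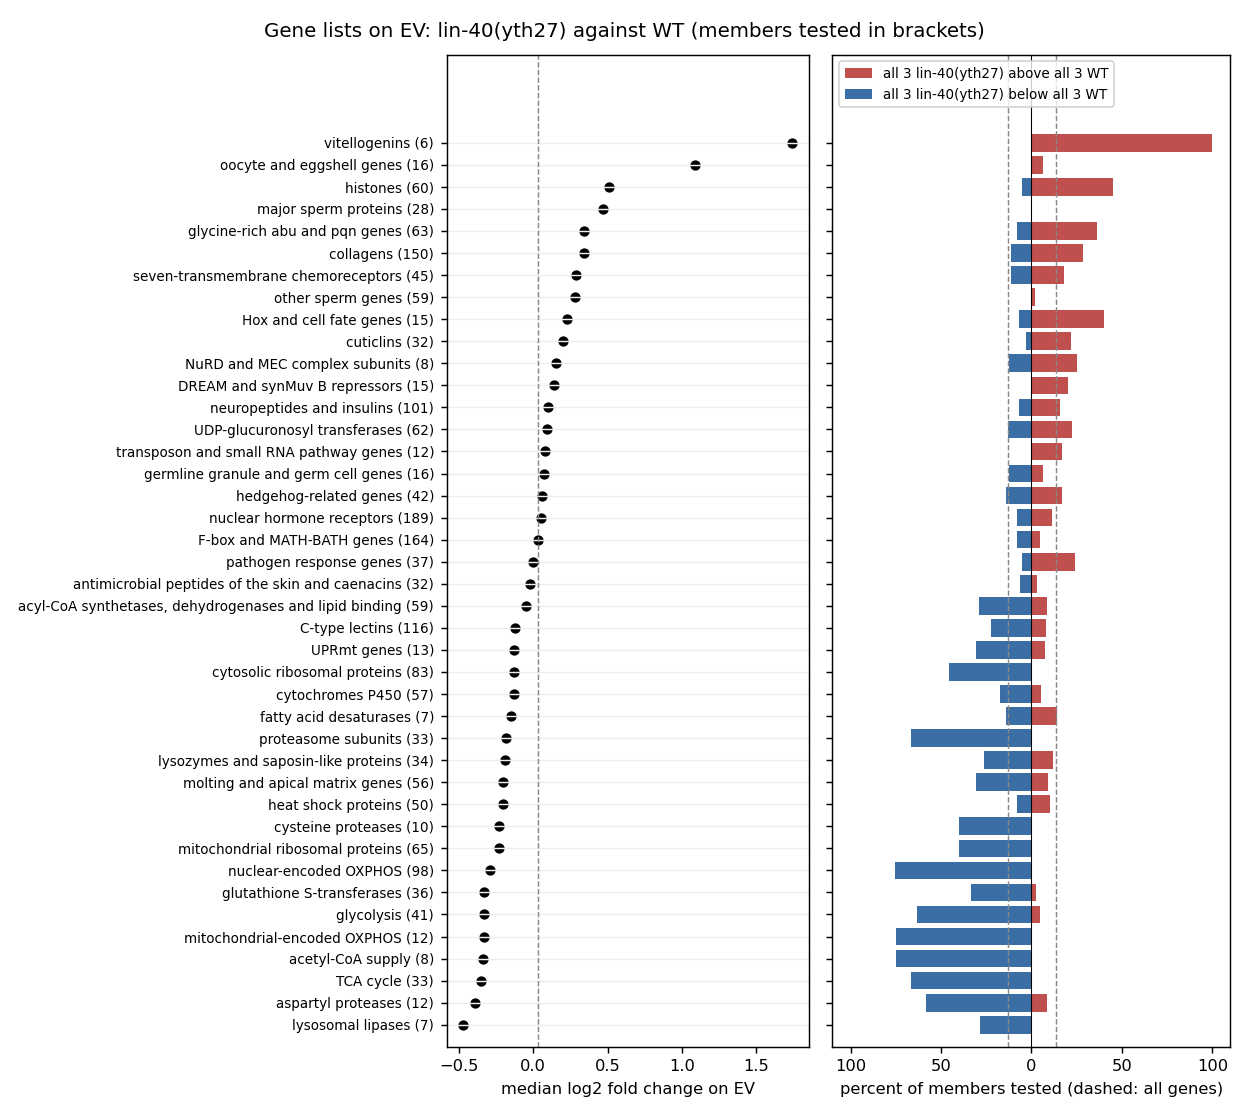
Left, median log2 fold change on EV for each gene list, with the number of members tested in brackets and a dashed line at the 0.03 of all genes. Right, percent of members whose 3 lin-40(yth27) libraries all lay above (red) or below (blue) the 3 WT libraries, with dashed lines at 13.4% and 13.1% for all genes; nuclear-encoded OXPHOS reaches 75.5% below and histones 45% above.

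Yolk and oocyte genes had higher values in the mutant without passing the test, and WT library 1 was the lowest library for them. The 6 vitellogenins, which encode yolk proteins made by the adult gut, summed to 673, 3890 and 2870 CPM in WT and 6260, 8550 and 8980 CPM in the mutant. vit-2 lay at 188, 1160 and 755 CPM against 2050, 2420 and 2460 CPM. All 6 were above WT in all libraries, where 13.4% of all genes were, with a median log2 fold change of 1.74. Yet none passed edgeR (1 higher at an unadjusted p under 0.05, 0 in DESeq2), and on cco-1 RNAi the median was -0.16. Without WT library 1 the EV median was still 1.27. The 16 oocyte and eggshell genes had a median of 1.09 (0.68 without WT library 1 and -0.20 on cco-1 RNAi) and none passed (1 higher at an unadjusted p under 0.05, 0 in DESeq2). chs-1, the eggshell chitin synthase, lay at 8.55, 23.3 and 17.5 CPM against 26.7, 34.7 and 37.2 CPM. The 28 major sperm protein genes had a median of 0.47, which became 0.06 without WT library 1, with 0 members at an unadjusted p under 0.05 and 0 calls in edgeR and DESeq2. Oocyte markers summed to 157, 731 and 337 CPM in WT and 602, 894 and 1000 CPM in the mutant, and sperm markers to 121 CPM in WT library 1 and 331 to 550 CPM in the other 5 libraries. The adult collagen col-19 lay at 28.7, 230 and 158 CPM against 336, 388 and 392 CPM. These genes switch on late in L4 and in young adults, and WT library 1 was lowest in each. The part of developmental timing in the differences between the groups was not tested. Germ cell markers, which mark the proliferating and meiotic germline, had a median of 0.08 and summed to 974 to 1110 CPM in WT and 955 to 1160 CPM in the mutant.

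**Figure D4:**
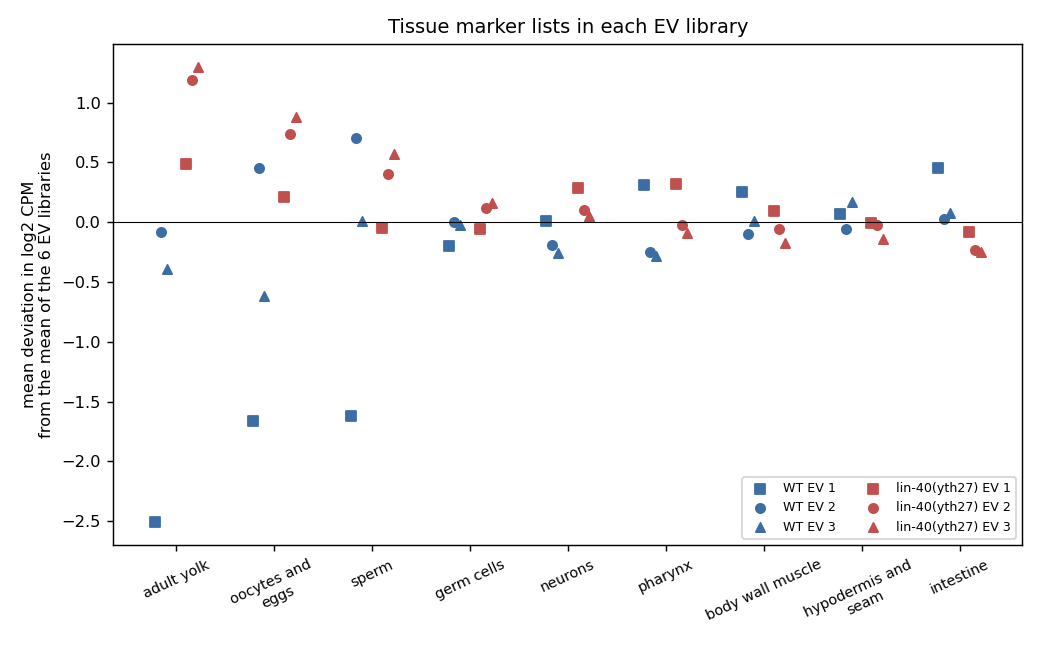
Mean deviation of 9 tissue marker lists in log2 CPM from the mean of the 6 EV libraries, for each library (blue WT, red lin-40(yth27); square, circle and triangle are libraries 1, 2 and 3). WT library 1 lies at -2.51 for yolk, -1.66 for oocytes and -1.62 for sperm, and the 6 lists of other tissues shown lie between -0.28 and 0.45 in all 6 libraries. The male list, with 1 marker tested, is not drawn.

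Cuticle families differed in the direction of their values. Of 150 collagens tested, 43 (28.7%) lay above and 17 (11.3%) below WT in all libraries, where 13.4% and 13.1% of all genes did, and the summed level was 61200 to 73400 CPM in WT and 67100 to 77800 CPM in the mutant. DESeq2 called 6 collagens higher and 11 lower. The 63 glycine-rich abu and pqn genes, many of them expressed in the pharyngeal lining, had 23 (36.5%) wholly above WT and 5 (7.94%) below with a median of 0.34, and none passed edgeR (21 higher and 3 lower at an unadjusted p under 0.05, 2 higher in DESeq2). Mutant library 1 had the highest summed level for both families, 77800 CPM for collagens and 4620 CPM for the abu and pqn genes. Molting and apical matrix genes leaned the other way, with 17 of 56 (30.4%) wholly below WT, 5 (8.93%) above and 9 called lower by DESeq2. The hedgehog-related genes wrt-2 and wrt-10, expressed in the skin, lay at 121, 109 and 162 CPM against 60.4, 70.7 and 71.7 CPM and at a mean of 287 CPM against 153 CPM (n = 3 each). Neither passed edgeR (adjusted p = 0.0666 and 0.09), and DESeq2 called both lower (adjusted p = 0.000588 and 0.00213). The skin collagen dpy-7 was also lower without passing edgeR, at 341, 274 and 392 CPM against 191, 207 and 184 CPM (adjusted p = 0.0981). These transcripts cycle within each larval stage, and WT library 3 was the highest in all 3 of them. The part of timing within the stage was not tested.

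Of 15 Hox and cell fate genes, 6 (40%) lay above and 1 (6.67%) below WT in all libraries, against 13.4% and 13.1% of all genes, with a median of 0.23, and none passed edgeR (3 higher and 1 lower at an unadjusted p under 0.05, 0 in DESeq2). They summed to 261, 225 and 221 CPM in WT and 310, 254 and 255 CPM in the mutant. lin-41, a regulator of the juvenile to adult switch, lay at 63.5, 67.3 and 45 CPM in WT and 122, 86.9 and 96.9 CPM in the mutant (log2 fold change 0.80, SE 0.25, edgeR adjusted p = 0.179). lin-3, the EGF ligand of vulval induction, lay at 7.03, 9.54 and 7.47 CPM against 10.5, 12.4 and 11.9 CPM, and let-23, its receptor, at 3.77, 4.49 and 5.46 CPM against 7.86, 6.96 and 6.3 CPM. The ligand and the receptor were both above WT in all libraries, with log2 fold changes of 0.54 (SE 0.19) and 0.62 (SE 0.23). On cco-1 RNAi they stood at -0.01 and -0.54. The Hox genes lin-39 (0.23), mab-5 (0.45), ceh-13 (0.24), egl-5 (0.43), php-3 (-0.39) and nob-1 (0.07) had edgeR adjusted p of 0.36 to 0.914. lin-11, a LIM homeobox gene of vulval cells, lay at 17.5, 12 and 15.9 CPM against 11.2, 10.9 and 10.3 CPM.

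Defense and detoxification families held 1 or 2 calls each where any, against 0.377% of all genes called. pals-39 and dod-23 were the 2 called of 37 pathogen response genes (5.41%), where DESeq2 called 6 higher and 2 lower. clec-47 was the 1 called of 116 C-type lectins (0.862%), of which 9 (7.76%) lay wholly above and 26 (22.4%) wholly below WT, against 13.4% and 13.1% of all genes. ugt-4 was the 1 called of 62 UDP-glucuronosyl transferases (1.61%), with 14 (22.6%) above and 8 (12.9%) below. Among 36 glutathione S-transferases 12 (33.3%) lay wholly below WT and 1 (2.78%) above with a median of -0.33, and none passed edgeR (0 higher and 13 lower at an unadjusted p under 0.05, 2 lower in DESeq2). gst-42, which acts in tyrosine breakdown, lay at 50.4, 46.5 and 52.5 CPM against 33, 35.6 and 33.8 CPM (edgeR adjusted p = 0.115). cyp-32B1, a cytochrome P450 gene that lies 171 kb before the repeated stretch on chromosome V, lay at 5.4, 8.1 and 6.08 CPM against 3.74, 2.48 and 3.24 CPM (edgeR adjusted p = 0.0741). Of 34 lysozymes and saposin-like genes, spp-23 passed (2.94%).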

How the data were processed

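The gene lists and described genes were chosen with earlier results of these data known. Poly(A) RNA of whole L4 animals was sequenced in paired ends, and the authors trimmed reads with SeqPrep and Sickle, aligned them with TopHat and quantified genes with RSEM. The deposited values were read as RSEM expected counts per gene, not normalized, since 19382 of them were not whole numbers and the library totals differed. Their genome build and annotation are not given in the sources used. Expected counts were rounded. The table held 46920 rows, of which 46778 carried a WormBase identifier and the rest were loci assembled from reads (0.0233% of counts). No column belonged to samples outside the series. Gene coordinates are those of WBcel235 (Ensembl release 115), looked up by gene identifier, and 46603 identifiers matched.

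All 12 libraries, 3 per group, were fitted together with edgeR 4.0.16 in R 4.3.3 (filterByExpr, TMM scaling, quasi-likelihood test, Benjamini-Hochberg adjustment), and lin-40(yth27) minus WT on EV was the contrast. The coefficient of biological variation was 26.1%. DESeq2 1.42.0 was an alternative, as were other scalings, filters, a spline of gene length with 4 degrees of freedom, a replicate block and each library left out. Named in full were the 12 called genes with the largest log2 fold change in each direction among those whose EV libraries did not overlap; other called genes, hand-listed genes and the 2 members of lowest p of lists without calls were also named. The fit was tested on simulated data. Replicates carry a number in their titles. The study describes its data in general as biological replicates, without saying what was separate for these libraries, and p-values measure the spread between them. The main fit did not pair libraries, and the block by replicate number was run as an alternative only. Deviations of same-numbered EV libraries from their group means correlated at 0.467, 0.278 and 0.17. Mutant EV library 3 correlated better with WT EV library 2 (0.329). On cco-1 RNAi the same numbers gave -0.376, -0.216 and -0.168. Replicates differed by more than sampling noise (chi-square per degree of freedom 4.4 or more). Intervals and floors cover counting error or the number of genes only.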

Additional observations from a re-analysis of the deposited data

How the results depend on the processing

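The main count was 56 genes, 30 higher and 26 lower, with 96.4% of the same direction on cco-1 RNAi. Leaving out 1 library gave 6 to 92 calls, 2 to 50 higher and 4 to 66 lower, with 79.1% to 100% of the same direction. The lowest count came without WT EV library 3, and 92 without WT EV library 2 and without WT cco-1 library 1. With the replicate block by title number, 9 were called (3 higher, 6 lower, 100% of the same direction), all 9 among the 56, with the pairing by the number in the short library names 1 (0 higher, 1 lower, 100%), and with the block and the gene length trend together 6 (3 higher, 3 lower, 100%). Removing the length trend alone left 19 higher and 38 lower genes, 87.7% of the same direction. With library totals as the scale, 14 genes were called lower and 33 higher, 70.2% of calls against 53.6%, with the median of all genes at 0.16. At least 10 CPM in 3 libraries left 20 calls (8 higher, 12 lower, 100%), the 6 EV libraries alone 37 (18 higher), and an adjusted p under 0.01 8 (4 higher, 4 lower, 100%). DESeq2 called 458 (163 higher, 295 lower, 75.8%). The other scalings, the absence of a filter and the removal of the repeated stretch on chromosome V, added after seeing the data, stayed within 1.5 times of the main counts. Over the 56 genes and these settings, 666 values kept their side of the threshold and 595 lost it, and for the other named genes 2515 stayed uncalled and 37 passed; no direction of a called gene turned. The causes of these shifts were not tested.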

Other observations

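The inducible heat shock genes hsp-16.2 and hsp-70 differed widely between the WT libraries on EV. hsp-16.2, a small cytosolic heat shock protein, averaged 65.2 ± 54.3 CPM (SD, n = 3) in WT on EV, with library 2 at 3.19 and library 3 at 88.3 CPM, and 7.8, 1.13 and 2.5 CPM in lin-40(yth27), and hsp-70 at 105, 7.64 and 103 CPM against 15.1, 5.03 and 7.32 CPM. WT libraries 1 and 3 were high and WT library 2 lay within the mutant range for hsp-16.2 and hsp-70, so the groups overlapped. Neither passed edgeR (adjusted p = 0.115 and 0.166), and DESeq2 called both lower (adjusted p = 0.00584 and 0.0395). On cco-1 RNAi hsp-16.2 lay at 16.2, 32.5 and 15.9 CPM in WT and 4.41, 10.8 and 11.4 CPM in the mutant. There hsp-70 lay at 8.39, 40.4 and 8.94 CPM against 5.16, 8.06 and 7.73 CPM. Both were without overlap there and did not pass edgeR (adjusted p = 0.526 and 0.43).

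Several genes outside the called set lay apart between the genotypes without passing edgeR on EV. lipl-5, a lysosomal lipase, lay at 165 ± 69.6 CPM in WT and 53.9 ± 4.12 CPM in the mutant (SD, n = 3 each) (edgeR adjusted p = 0.088). bath-47, of the MATH-BATH family, lay at 7.54, 7.22 and 3.24 CPM against 1.74, 1.43 and 0.973 CPM (edgeR adjusted p = 0.0598). srg-31, a seven-transmembrane chemoreceptor gene, lay at 0.281, 0.509 and 0.258 CPM against 7.07, 3.4 and 2.32 CPM, with an edgeR adjusted p of 0.0832 on EV and 0.043 on cco-1 RNAi. ins-35, an insulin-like peptide gene, lay at 2.25, 4.35 and 2.78 CPM against 9.49, 7.43 and 7.23 CPM, with 0.0981 on EV and 0.00478 on cco-1 RNAi. The mutant libraries were all on the same side of WT on EV for these 4 genes. DESeq2 called all 4 on EV, at adjusted p of 0.00101, 0.000185, 0.000265 and 0.0103 in turn.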
